A study of Mus musculus with 12 samples.

Results

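The genes described here carry out the last steps of barrier formation in stratified epithelium: the transglutaminases Tgm1, Tgm3 and Tgm5, the lipoxygenases Alox12b and Aloxe3, the lipid transporter Abca12, the ceramide synthase Cers3, the protease Casp14, and the secreted proteins Cdsn and Sbsn. They were named by symbol, and every probe whose accession mapped to one of the 10 symbols was taken. The array held 10 probes for 8 of them, of 17178 genes with a symbol, and all 8 passed the filter and stand among the 31064 genes tested. Abca12 and Cers3 had no matching probe and were not analysed here. RNA came from 12 colonies grown in culture from labial cervical loops, which house the epithelial stem cells of the growing mouse incisor. The colonies had 3 genotypes on a mixed background, with 4 colonies each: double null (labelled Bmi1-;Ink4a/Arf-), Bmi1 null (labelled Bmi1-) and WT. Both mutant genotypes therefore lack Bmi1, a subunit of Polycomb repressive complex 1, and the double null colonies also lack the Ink4a/Arf locus, Cdkn2a, a known target of Bmi1. Each array measured 1 colony. The labels call the colonies biological replicates and do not say that they came from separate animals, so a p-value here reflects colony-to-colony spread, which may be technical.

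Cornification replaces the plasma membrane of a dying epithelial cell with a protein shell and a lipid coat. Transglutaminases cross-link precursors such as loricrin and small proline-rich proteins into the shell, Abca12 and Cers3 supply ceramides, and the lipoxygenases Alox12b and Aloxe3 oxidise the linoleate of these ceramides in sequence so that the lipid can be attached to the shell. Casp14 takes part in breaking down filaggrin, and Cdsn is an adhesive protein of the junctions that hold cornified cells together. The incisor epithelium normally forms enamel rather than a cornified layer, and loss of barrier genes is known chiefly from skin, where it causes ichthyosis or peeling.

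Levels are the log2 processed signal of a probe minus the 75th percentile of its array, and a change is the difference of 2 genotype means on that scale. Signal spread more widely on mutant arrays, with an interquartile range on the log2 scale of 4.04 to 4.93 on double null arrays and of 4.32 to 4.69 on Bmi1 null arrays, against 2.49 to 2.62 on WT arrays. The median change of all genes was -1.39 in double null against WT colonies, -1.24 in Bmi1 null against WT colonies and -0.06 in double null against Bmi1 null colonies. With arrays scaled on their medians the first 2 values were -0.39 and -0.30. With the all-gene median of the 75th percentile scaling subtracted, changes in Bmi1 null against WT colonies were 2.58 (Casp14) to 5.31 (Cdsn) for 7 barrier genes and -1.21 for Tgm3. In double null against WT colonies they were 0.31 (Aloxe3) to 3.67 (Tgm1) and -0.94 for Tgm3. Alox12b and Aloxe3 there had changes of -1.06 and -1.08 that turned to 0.34 and 0.31 relative to that median. How far the wider signal range moves them was not tested. Of all genes tested, 25.7% rose and 59.7% fell in double null and 25.2% and 58.3% in Bmi1 null against WT colonies. Against WT, 15 of 15 epithelial markers rose in double null and 13 of 15 in Bmi1 null colonies, while 11 of 11 immune cell markers fell in both, with mean levels of -3.59 to -2.61 on double null arrays and -3.38 to -2.94 on Bmi1 null arrays, against -0.11 to 0.26 on WT arrays. Endothelial markers also fell, 7 of 7 in both mutants. Of 8 glial, neural and melanocyte markers 7 fell in double null and 8 in Bmi1 null colonies. Of 10 hair follicle and sebaceous gland markers 8 fell in each mutant, with 2 higher in double null and 1 in Bmi1 null colonies. Of 11 mesenchymal and fibroblast markers 4 fell in double null and 5 in Bmi1 null colonies, with 1 higher in each. The part of these marker changes in the results against WT was not tested. In a whole colony fewer cells of a type and less RNA per cell cannot be told apart. Bmi1 was 2.25 ± 0.23 log2 units lower in double null and 2.09 ± 0.23 lower in Bmi1 null than in WT colonies, or 0.86 and 0.85 below the median of all genes. The probe used was well above background on all 12 arrays. A second, dimmer Bmi1 probe fell by 3.94 in double null and 4.13 in Bmi1 null colonies. That probe was well above background on 1 of 4 arrays of each mutant. Cdkn2a was well above background on 0 of 4 double null, 4 of 4 Bmi1 null and 0 of 4 WT arrays. Its bound was at least 2.72-fold lower for double null relative to Bmi1 null arrays.

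Replicate 4 of the double null colonies stood apart for these genes. It had the highest level of the 4 double null arrays in 7 of the 7 barrier genes measured on all 4, whereas that held for 16.9% of all genes measured on the 4 arrays, and 40.6% had their lowest level there. The mean over the 7 barrier genes measured on every array was 0.90, 0.67 and 1.08 in double null replicates 1 to 3 and 2.89 in replicate 4, against 2.59 to 2.84 in Bmi1 null and 0.79 to 1.16 in WT colonies. Its Cdkn2a signal was low like that of the other double null colonies. Its rank correlation over the whole array was 0.960 to 0.971 with the other double null arrays and 0.946 to 0.971 with the Bmi1 null arrays, so it did not stand clearly closer to one genotype. It was singled out by its levels of these same genes, so lower double null values and smaller p-values without it follow in part from that choice and are given as a description, not as support. Counts of called barrier genes and of called genes in the lists of related genes are also given without it where they move with it. So are the values of some barrier genes. Counts of cell type markers are given with all arrays only.

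**Figure D1:**
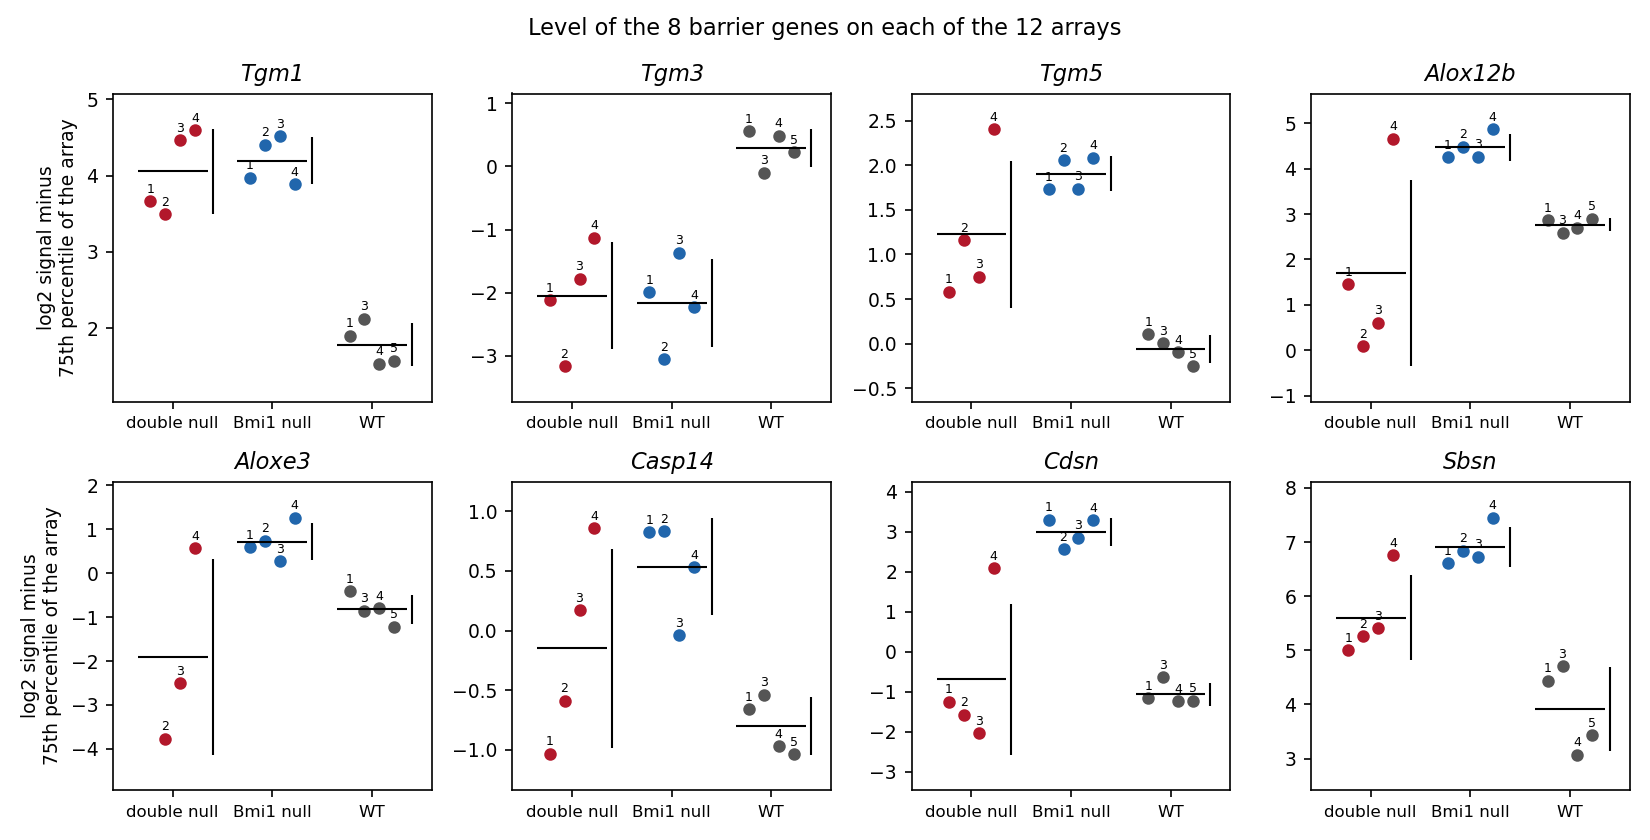
Log2 signal minus the 75th percentile of the array for each of the 8 barrier genes, with 1 point per array labelled by its replicate number, the genotype mean as a horizontal line and ±1 SD as a vertical line. Double null replicate 4 lies above the other double null points in every panel; Aloxe3 has no point for replicate 1, whose spot was marked as an outlier.

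Of the 8 genes, 6 rose, 1 fell and 1 was not called in Bmi1 null against WT colonies, where 25.2% of all genes rose and 58.3% fell (83.5% called). Their median change was 1.83, against the median of -1.24 over all genes tested. Levels of 7 genes, Aloxe3 among them, lay wholly above WT and those of Tgm3 wholly below, as 23.8% and 56.3% of all genes did. In double null against WT colonies 3 rose (Tgm1, Tgm5 and Sbsn), 1 fell (Tgm3) and 4 were not called, where 25.7% of all genes rose and 59.7% fell (85.4% called), with a median of 0.51 against -1.39. The 4 called genes were also the 4 whose groups did not overlap, 3 above and 1 below, where 24.7% and 56.6% of all genes lay wholly above or below. In double null against Bmi1 null colonies 0 rose, 2 fell (Alox12b and Cdsn) and 6 were not called (0 higher and 4 lower at an unadjusted p under 0.05), where 2.81% of all genes rose and 4.62% fell (7.43% called), with a median of -0.995 against -0.06. Only Cdsn lay wholly below Bmi1 null, as 7.18% of all genes did, and none wholly above (6.6% of all genes). Without double null replicate 4, 5 of 8 fell (Tgm5, Alox12b, Aloxe3, Cdsn and Sbsn) and 0 rose, where 4.38% of all genes fell and 2.4% rose (6.78% called). Without it, in double null against WT colonies 3 rose and 3 fell (Tgm3, Alox12b and Aloxe3), where 25.2% of all genes rose and 58.5% fell (83.7% called). The shares of all genes depend on the scaling: of the genes called against WT, 30.1% in double null and 30.2% in Bmi1 null colonies were higher, and 45.8% and 46.9% with arrays scaled on their medians. Between the mutants it was 37.8%, and 42.9% with median scaling, 48.8% in the authors' table and 58.7% with a normexp background correction. On the 2 slides that held both Bmi1 null and WT arrays, all 8 genes differed in the direction seen overall. On the 1 slide with double null and WT arrays 7 of 8 did so, and Cdsn differed by -1.39. These arrays also enter the overall means, so a shared direction is partly built in. Within slides the median of all genes was -1.43 and -0.93 in Bmi1 null and -1.26 in double null against WT colonies. The comparisons share colonies and are not independent of each other.

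**Figure D2:**
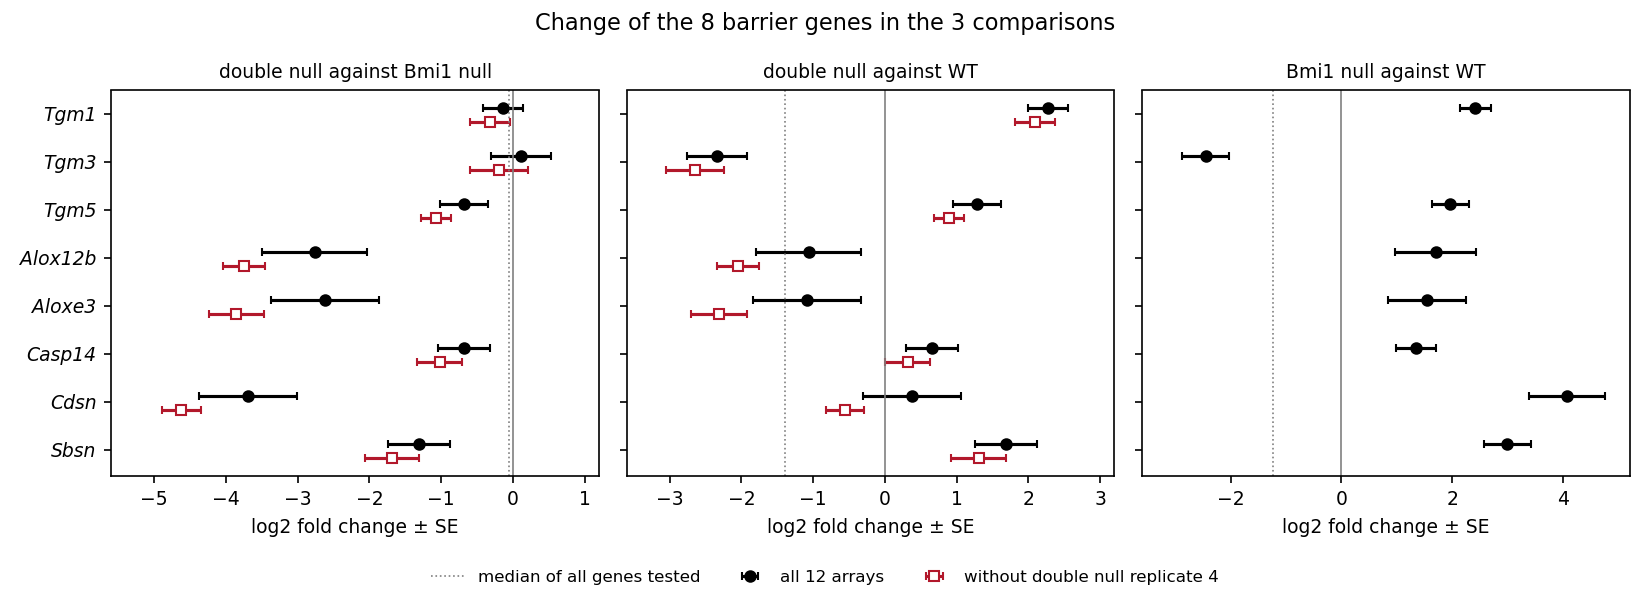
Log2 fold change ± SE of the 8 barrier genes in the 3 comparisons, with all 12 arrays (filled circles) and without double null replicate 4 (open squares), and the median of all genes tested as a dotted line. Tgm1 and Tgm3 stay near 0 between the mutants, at -0.14 and 0.11, while Alox12b, Aloxe3 and Cdsn lie between -3.69 and -2.62 and move further down without replicate 4.

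Of the transglutaminases, Tgm1 and Tgm5 were higher and Tgm3 was lower in both mutants than in WT colonies, and none of them passed the test between the mutants. Tgm1, the membrane-bound enzyme of the upper epidermal layers, had levels of 3.66, 3.49, 4.47 and 4.60 on double null arrays and 3.97, 4.41, 4.52 and 3.89 on Bmi1 null arrays, against 1.90, 2.12, 1.53 and 1.57 on WT arrays. Every mutant array lay above every WT array, and the mutants overlapped. The change against WT was 2.27 ± 0.28 (SE) in double null and 2.42 ± 0.28 in Bmi1 null colonies, or 4.84-fold and 5.33-fold, with adjusted p of 8.24e-06 and 5.7e-06 in limma. Relative to the median of all genes these changes were 3.67 and 3.65. Between double null and Bmi1 null colonies the difference was -0.14, with a 95% interval of -0.75 to 0.47 and an adjusted p of 0.83.

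Tgm5, which acts in the cornifying layers and whose loss causes peeling of human skin, had levels of 0.58, 1.16, 0.75 and 2.41 on double null arrays and 1.74, 2.06, 1.74 and 2.09 on Bmi1 null arrays, against 0.11, 0.01, -0.10 and -0.25 on WT arrays. Both mutants lay wholly above WT, and double null replicates 1 to 3 lay below every Bmi1 null array while replicate 4 lay above them. The rise against WT was 1.28 ± 0.33 in double null (adjusted p = 0.00276) and 1.96 ± 0.33 in Bmi1 null colonies (adjusted p = 0.000121). With the slide as a fixed block the double null value was 1.12 with an adjusted p of 0.108. The difference between the mutants was -0.68 (interval -1.40 to 0.04, adjusted p = 0.256); without double null replicate 4 it was -1.07 (adjusted p = 0.0106).

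Tgm3, a cytosolic enzyme of hair and epidermis that cross-links trichohyalin and loricrin, went the other way. Its levels were -2.12, -3.16, -1.78 and -1.13 on double null arrays and -1.99, -3.05, -1.36 and -2.23 on Bmi1 null arrays, against 0.56, -0.10, 0.49 and 0.22 on WT arrays. No mutant array reached the WT range, and the mutants overlapped. Tgm3 fell by 2.34 ± 0.42 in double null (adjusted p = 0.000186) and by 2.45 ± 0.42 in Bmi1 null colonies (adjusted p = 0.000137), against median changes of all genes of -1.39 and -1.24, so that it stood 0.94 and 1.21 below the median. It kept its direction and its call against WT under all 23 alternatives run for each mutant. The mutants differed by 0.11 (interval -0.80 to 1.02, adjusted p = 0.916).

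The transglutaminase family, taken as 8 genes with Tgm1, Tgm3 and Tgm5 among them, had 3 members higher and 5 lower in each mutant against WT (3 and 3 in the authors' table). Among all genes 25.7% rose and 59.7% fell in double null, and 25.2% and 58.3% in Bmi1 null colonies. Between the mutants 0 of the 8 were called, and 0 had an unadjusted p under 0.05. Without double null replicate 4, 1 of the 8 fell there, where 4.38% of all genes fell. The third gene that rose was Tgm4, a prostate transglutaminase, by 1.47 ± 0.19 in double null colonies. F13a1, the coagulation factor XIII subunit made by macrophages and platelets, was well above background on 4 of 4 WT arrays and on no mutant array, and was at least 10.5-fold lower in double null and at least 12.0-fold lower in Bmi1 null colonies. Epb42, the inactive family member of the red cell membrane, fell by 2.04 in double null and by 2.45 in Bmi1 null colonies.

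The lipoxygenases Alox12b and Aloxe3, which are neighbours on mouse chromosome 11 with 0 protein-coding genes between them, had lower levels in the other measured double null colonies than in replicate 4. Alox12b, which starts the oxidation of the ceramide linoleate, has 2 probes on the array. On the brighter one its levels were 1.45, 0.09, 0.61 and 4.66 on double null arrays and 4.25, 4.48, 4.26 and 4.87 on Bmi1 null arrays, against 2.87, 2.59, 2.70 and 2.90 on WT arrays. Double null replicates 1 to 3 lay below every other colony, replicate 4 lay inside the Bmi1 null range, and the Bmi1 null colonies lay wholly above WT. Alox12b fell by 2.76 ± 0.73 in double null against Bmi1 null colonies (adjusted p = 0.0386), and by 3.75 without double null replicate 4 (adjusted p = 6.05e-05).

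That call was narrow: it was lost when any 1 array other than double null replicate 4 was left out, with changes of -2.83 to -2.23. With the slide as a fixed block the adjusted p was 0.212, and on the 2 slides that held both mutants the difference was -3.87 and, with replicate 4 on the slide, -1.21. In Bmi1 null against WT colonies Alox12b rose by 1.70 ± 0.73 (adjusted p = 0.0449), and this call also was lost when any 1 of the 8 Bmi1 null and WT arrays was left out. Against WT the double null change was -1.06 (interval -2.64 to 0.53, adjusted p = 0.189), and -2.04 without replicate 4 (adjusted p = 5.66e-05). The dimmer probe gave 1.53, 0.07, 0.55 and 4.60 on double null arrays and 4.31, 4.52, 3.94 and 5.09 on Bmi1 null arrays, against 1.46, 0.81, 0.78 and 0.31 on WT arrays. The probes matched closely in the mutants and not in WT, so that the double null change against WT was 0.85 on the dimmer probe and the direction against WT is not settled. The Bmi1 null change against WT was 3.63 on the dimmer probe, with an adjusted p of 0.000677 over all probes.

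**Figure D3:**
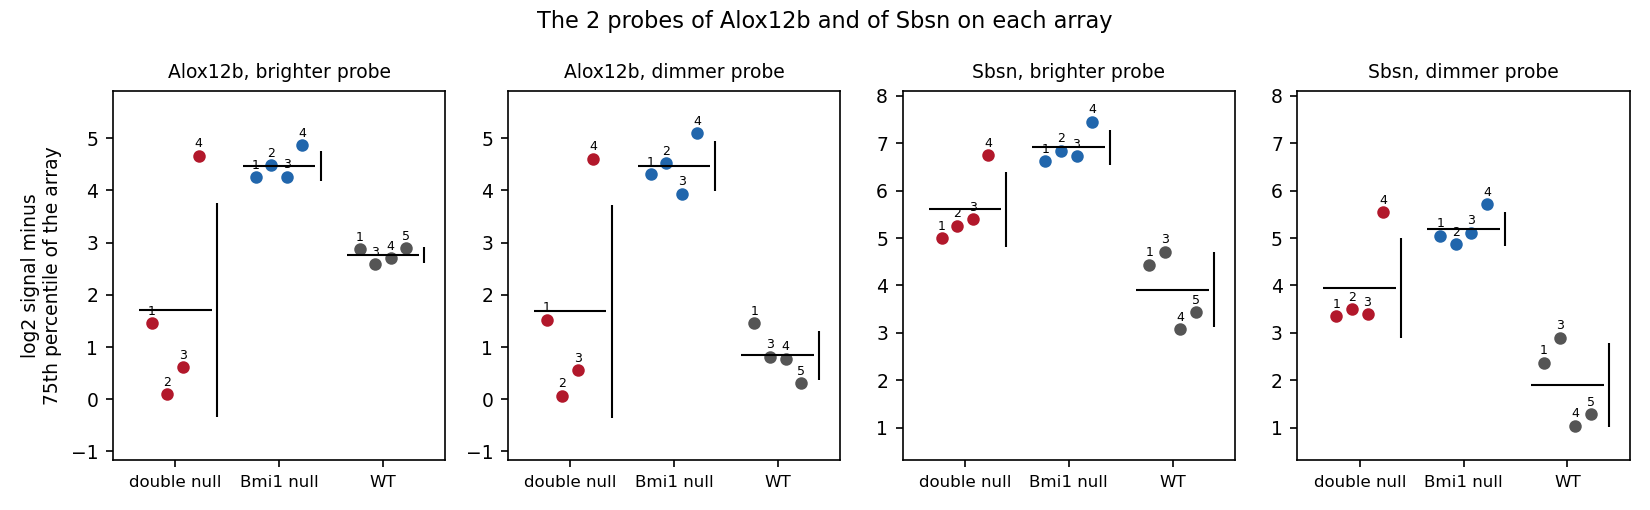
Log2 signal minus the 75th percentile of the array for the 2 probes of Alox12b and the 2 probes of Sbsn, with 1 point per array, the genotype mean as a horizontal line and ±1 SD as a vertical line. The Alox12b probes agree in the mutants, while WT lies at 2.59 to 2.90 on the brighter and at 0.31 to 1.46 on the dimmer one; both Sbsn probes order the genotypes alike.

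Aloxe3, which converts the product of Alox12b, had levels of -3.77, -2.51 and 0.56 in double null replicates 2, 3 and 4, and its spot in replicate 1 was marked as an outlier and left out. Bmi1 null arrays had 0.60, 0.74, 0.27 and 1.26, against -0.41, -0.85, -0.80 and -1.22 on WT arrays. Again double null replicate 4 lay in the Bmi1 null range, and the other measured double null colonies lay below WT. The difference between double null and Bmi1 null colonies was -2.62 ± 0.75 (adjusted p = 0.0585); without double null replicate 4, with 2 colonies left, it was -3.85 (adjusted p = 0.000383), and without double null replicate 2 it was -1.69 (adjusted p = 0.177). With the slide as a fixed block it was -1.63 (adjusted p = 0.302). Within the 2 shared slides it was -3.25 and, with replicate 4 as the slide's only measured double null array, 0.29. The Bmi1 null difference from WT was 1.54 ± 0.70 (adjusted p = 0.0576), with no overlap between the groups. For double null against WT it was -1.08 (interval -2.73 to 0.57), and -2.31 without replicate 4 (adjusted p = 0.000233) and -0.15 without replicate 2 (adjusted p = 0.838); with arrays scaled on their medians it was 0.020.

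Casp14, a caspase confined largely to cornifying epithelia, rose in Bmi1 null colonies and was not called in double null colonies. Its levels were -1.03, -0.59, 0.17 and 0.86 on double null arrays and 0.82, 0.83, -0.04 and 0.53 on Bmi1 null arrays, against -0.66, -0.54, -0.97 and -1.03 on WT arrays. The Bmi1 null colonies lay above WT and the double null colonies spread across both. Casp14 rose by 1.34 ± 0.36 in Bmi1 null against WT colonies (2.53-fold, adjusted p = 0.00402). The double null difference was 0.65 from WT (interval -0.13 to 1.44, adjusted p = 0.107) and -0.68 from Bmi1 null (interval -1.47 to 0.10, adjusted p = 0.302). Without double null replicate 4 these values were 0.32 (adjusted p = 0.351) and -1.02 (adjusted p = 0.0754). Against WT it was called with median scaling, with quantile normalization, in the authors' table and without double null replicate 1.

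Cdsn, which encodes corneodesmosin, had the largest change of the 8 genes in Bmi1 null against WT colonies and in double null against Bmi1 null colonies. Its levels were -1.25, -1.57, -2.03 and 2.10 on double null arrays and 3.30, 2.57, 2.85 and 3.29 on Bmi1 null arrays, against -1.17, -0.64, -1.23 and -1.22 on WT arrays. Bmi1 null colonies lay wholly above both other genotypes, and double null replicates 1 to 3 lay below every WT array while replicate 4 came near to the Bmi1 null range. Cdsn fell by 3.69 ± 0.68 in double null against Bmi1 null colonies (adjusted p = 0.00721), and by 4.62 without double null replicate 4 (adjusted p = 1.29e-05). With the slide as a fixed block the change was -3.66 with an adjusted p of 0.102. On the 2 slides that held both mutants it was -4.61 (1 array each) and -2.43 (2 double null arrays and 1 Bmi1 null array, with double null replicate 4 among them). In Bmi1 null against WT colonies Cdsn rose by 4.07 ± 0.68, or 16.8-fold (adjusted p = 0.000122). The double null difference from WT was 0.38 (interval -1.11 to 1.86, adjusted p = 0.614), and -0.55 without replicate 4 (adjusted p = 0.0727).

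Sbsn, suprabasin, a secreted protein of the suprabasal layers, was higher in both mutants than in WT colonies. Its levels were 5.0, 5.26, 5.40 and 6.75 on double null arrays and 6.61, 6.84, 6.73 and 7.45 on Bmi1 null arrays, against 4.44, 4.71, 3.07 and 3.44 on WT arrays. The genotypes did not overlap except through double null replicate 4, which lay inside the Bmi1 null range. Sbsn rose by 1.69 ± 0.43 in double null (3.22-fold, adjusted p = 0.00253) and by 2.99 ± 0.43 in Bmi1 null colonies (7.97-fold, adjusted p = 3.25e-05) against WT. The double null call was lost with quantile normalization (0.72), in the authors' table (0.61) and with the slide as a fixed block (1.48). The mutants differed by -1.31 (adjusted p = 0.0892), and by -1.69 without double null replicate 4 (adjusted p = 0.0214). The second Sbsn probe had the same signs, with changes of 2.04, 3.29 and -1.24 in the same order.

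Promoter windows of 300 bases, 250 before and 50 after an annotated gene start, were available from RefSeq (build GRCm38.p6) for 9 of the 10 genes, as 11 windows. They were searched on both strands for 4 motifs: AP-1 (TGANTCA), Grainyhead-like (AACNGGTT), a KLF motif (CACACCC) and a TATA box (TATAAA). AP-1 stood in 1 of the 11 windows, against 7.81% of all 32851 windows, Grainyhead-like in 1 against 2.09%, KLF in 3 against 7.95%, and the TATA box in 1 against 13.6%. The windows below include those of Alox12b and Sbsn, which lay below the Bmi1 null range in double null replicates 1 to 3. Sbsn lay above WT in these replicates. The other windows are those of Tgm3 and Tgm5, transglutaminases that moved in opposite directions against WT. Capitals mark motif matches: KLF and then the TATA box in Tgm3, Grainyhead-like in Tgm5, KLF in Alox12b, and AP-1 at 2 places in Sbsn. They lie at chr2:130012090-130012389 on the plus strand (Tgm3), chr2:121085792-121086091 on the minus strand (Tgm5), chr11:69156822-69157121 on the plus strand (Alox12b) and chr7:30751221-30751520 on the plus strand (Sbsn). Only windows with a match are printed. Those of Tgm1, Abca12, Cers3 and Cdsn held none, and Cdsn too lay below the Bmi1 null range in double null replicates 1 to 3. A match describes the letters only.
Tgm3: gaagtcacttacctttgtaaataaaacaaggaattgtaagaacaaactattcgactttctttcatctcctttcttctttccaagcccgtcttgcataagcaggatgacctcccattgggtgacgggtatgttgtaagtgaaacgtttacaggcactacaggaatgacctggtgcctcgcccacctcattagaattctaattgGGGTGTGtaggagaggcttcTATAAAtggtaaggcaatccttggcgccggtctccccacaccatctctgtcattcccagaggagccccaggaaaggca
Tgm5: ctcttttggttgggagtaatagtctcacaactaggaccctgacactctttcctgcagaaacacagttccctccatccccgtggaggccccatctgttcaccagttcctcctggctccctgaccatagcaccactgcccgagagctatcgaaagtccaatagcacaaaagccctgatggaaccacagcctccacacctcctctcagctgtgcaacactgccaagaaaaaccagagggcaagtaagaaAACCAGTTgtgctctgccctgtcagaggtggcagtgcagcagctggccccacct
Alox12b: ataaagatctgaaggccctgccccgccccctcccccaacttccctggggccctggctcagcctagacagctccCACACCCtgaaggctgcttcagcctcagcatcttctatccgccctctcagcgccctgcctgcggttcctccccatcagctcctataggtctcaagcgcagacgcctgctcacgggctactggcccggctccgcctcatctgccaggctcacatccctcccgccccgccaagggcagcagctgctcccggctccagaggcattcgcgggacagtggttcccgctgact
Sbsn: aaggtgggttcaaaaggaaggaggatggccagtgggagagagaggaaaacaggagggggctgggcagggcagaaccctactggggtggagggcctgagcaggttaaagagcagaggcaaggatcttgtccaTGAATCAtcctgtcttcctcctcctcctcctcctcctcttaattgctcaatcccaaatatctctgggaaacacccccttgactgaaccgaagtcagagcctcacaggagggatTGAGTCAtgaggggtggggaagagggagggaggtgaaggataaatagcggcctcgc

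The colonies also varied within a genotype. Over the 4 double null arrays the range of a barrier gene was 1.10 to 4.57 log2 units, against a median range of 0.88 over all genes, and it was widest for Alox12b, Aloxe3 and Cdsn. Over the Bmi1 null arrays it was 0.35 to 1.68, against a median of 0.92, and over the WT arrays 0.31 to 1.64, against 0.55. Double null replicates 1 to 3 all lay below the Bmi1 null range in 4 genes (Tgm5, Alox12b, Cdsn and Sbsn), as did replicates 2 and 3 in Aloxe3, and replicate 4 lay inside it in 3 (Alox12b, Aloxe3 and Sbsn). On the same arrays the mean level of 15 epithelial markers was 3.37, 3.21, 3.51 and 2.85 in double null replicates 1 to 4, and that of 11 mesenchymal and fibroblast markers was -2.12, -1.32, -2.25 and -0.03. Replicate 4 was thus lowest in the epithelial and highest in the mesenchymal list, and the part of either in the barrier genes was not tested.

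The genes whose levels followed the mean of the barrier genes most closely over the 8 mutant arrays, after each genotype's mean was subtracted, were AI661453 (Pearson r = 0.987), Kyat1 (0.986), Tmem159 (0.982), Marchf3 (0.981) and Fam89a (0.981). Each array's level entered that measure, so replicate 4 weighs heavily in it. Kyat1, for example, had 0.22, 0.013, 0.22 and 2.57 on double null arrays and 1.04, 0.77, 0.86 and 0.97 on Bmi1 null arrays.

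The proteins that transglutaminases cross-link, and their scaffold, changed in both directions. Of 29 envelope substrates and scaffold genes tested, 16 rose and 5 fell in Bmi1 null against WT colonies (median 2.33), and 8 rose and 8 fell in double null against WT colonies (median 0.73). Without double null replicate 4 the last counts were 8 and 14, with a median of -0.97. Shares of all genes that rose and fell were 25.2% and 58.3% in Bmi1 null and 25.7% and 59.7% in double null colonies. Without that replicate the double null shares were 25.2% and 58.5%. Between the mutants 0 rose and 7 fell (median -1.53; 0 and 14 at an unadjusted p under 0.05), and 15 fell without double null replicate 4. There 2.81% of all genes rose and 4.62% fell, and 4.38% fell without that replicate. The list's mean level was 0.05, -0.07, -0.20 and 2.78 in double null replicates 1 to 4, 1.94 to 2.57 on Bmi1 null arrays and 0.25 to 0.92 on WT arrays. Lor, loricrin, the main protein of the epidermal envelope, had 0.62, 0.31, -1.70 and 5.72 on double null arrays and 5.80, 5.14, 4.80 and 6.20 on Bmi1 null arrays, against 0.79, 0.44, -0.38 and -0.95 on WT arrays. Only replicate 4 of the double null colonies reached the Bmi1 null range. Lor fell by 4.25 ± 1.16 in double null against Bmi1 null colonies (adjusted p = 0.0431) and rose by 5.51 ± 1.16 in Bmi1 null against WT colonies (adjusted p = 0.000681). Rptn, repetin, and Sprr1a, a small proline-rich cross-bridging protein, rose by 5.32 ± 1.44 and 4.70 ± 0.70 in Bmi1 null against WT colonies. Cst6, a cysteine protease inhibitor, fell by 3.03 ± 0.51 and Tchhl1, well above background on 2 of 4 double null arrays, by 3.07 ± 0.62 in double null against Bmi1 null colonies. Against WT, Sprr4, Sprr2d and Sprr2f fell by 3.76, 3.48 and 2.98 in double null colonies, where Sprr4 had no value for replicate 1. Sprr2d had mean levels of -4.81 in double null, -4.68 in Bmi1 null and -1.33 in WT colonies. In the same order Sprr2f had -4.98, -4.65 and -2.00, and Sprr1a had 5.19, 7.17 and 2.48. The small proline-rich family thus did not move in 1 direction in either mutant. Copies of this family are close in sequence, and a probe may read more than 1 of them.

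**Figure D4:**
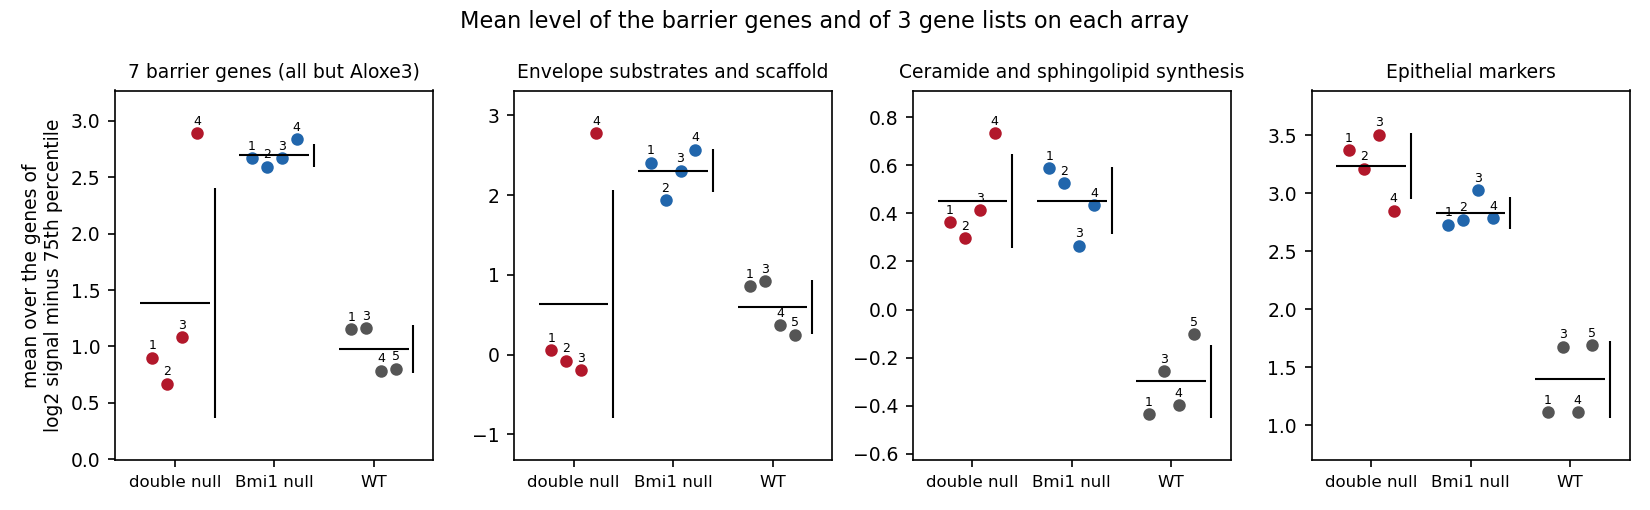
Mean log2 signal minus the 75th percentile of the array over 7 barrier genes, 29 envelope substrates and scaffold genes, 14 ceramide and sphingolipid genes and 15 epithelial markers, with 1 point per array, the genotype mean as a horizontal line and ±1 SD as a vertical line. In the first 2 panels double null replicates 1 to 3 lie near or below WT and replicate 4 near Bmi1 null; in the ceramide panel the mutants overlap above WT.

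The enzymes around the lipoxygenases, which make and oxidise acylceramides, formed a list of 18 genes. In Bmi1 null against WT colonies 9 rose and 4 fell, in double null against WT colonies 7 rose and 5 fell (6 and 10 without double null replicate 4), and between the mutants 1 rose and 2 fell (1 and 10 without double null replicate 4). At an unadjusted p under 0.05, 1 rose and 8 fell between the mutants. Shares of all genes that rose and fell in these comparisons were 25.2% and 58.3%, 25.7% and 59.7%, and 2.81% and 4.62%. Elovl1, an elongase of very long fatty acids, rose by 2.38 ± 0.26 in double null and by 2.92 ± 0.26 in Bmi1 null against WT colonies. Cyp4f39, the omega-hydroxylase of ultra-long fatty acids, rose by 2.99 ± 0.31 in Bmi1 null colonies. The other lipoxygenases did not move as a group. Alox8 was well above background on 4 of 4 WT arrays and 0 of 4 Bmi1 null arrays and was at least 8.58-fold lower there. Alox12e, an epidermal lipoxygenase of mice, fell by 2.43 ± 0.50 in double null against WT colonies. Between the mutants Alox12, the platelet-type enzyme, rose by 2.15 ± 0.34 in double null colonies (adjusted p = 0.00307), and Alox5, the first enzyme of leukotriene synthesis, fell by 2.70 ± 0.32 (adjusted p = 0.000618).

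Genes of ceramide synthesis and of lamellar bodies, the vesicles that carry barrier lipids out of the cell, included more genes that rose than fell in each mutant against WT. Among all genes, 25.7% rose and 59.7% fell in double null and 25.2% and 58.3% in Bmi1 null against WT colonies. Between the mutants 7.43% of all genes were called. Of 14 ceramide and sphingolipid genes 9 rose and 1 fell in double null and 6 rose and 1 fell in Bmi1 null against WT colonies, with 0 called between the mutants. At an unadjusted p under 0.05 the mutants differed in 5 of these 14. Without double null replicate 4, 9 rose and 2 fell in double null against WT colonies and 1 fell between the mutants. Cers2, a ceramide synthase of very long acyl chains, rose by 2.54 ± 0.30 in double null and by 2.41 ± 0.30 in Bmi1 null colonies, and Sgms1, a sphingomyelin synthase, by 2.04 and 2.31. Of 14 lamellar body and lipid processing genes 9 rose in each mutant, and 4 fell in double null and 3 in Bmi1 null against WT colonies, with 0 called between the mutants (4 at an unadjusted p under 0.05). Without double null replicate 4, 7 rose and 4 fell in double null against WT colonies and 3 fell between the mutants. Shares of all genes that rose and fell without it were 25.2% and 58.5% against WT, and 2.4% and 4.38% between the mutants. Lipk, an epidermal lipase, rose by 4.37 ± 0.84 in Bmi1 null colonies, and Sult2b1, which makes cholesterol sulfate, by 2.48 ± 0.25 in double null colonies. The secreted phospholipases Pla2g10 and Pla2g2f fell by 3.83 and 3.05 in double null and by 4.00 and 3.18 in Bmi1 null against WT colonies, but Pla2g10 was well above background on only 1 of 4 double null and 2 of 4 Bmi1 null arrays. Of the transporters related to Abca12, 12 of 14 fell in double null and 10 of 14 in Bmi1 null against WT colonies, where 59.7% and 58.3% of all genes fell, with medians of -1.76 and -1.71 against -1.39 and -1.24 for all genes (7 and 5 fell in the authors' table). Without double null replicate 4, 1 of these transporters rose and 11 fell in double null against WT colonies. Abca1, the cholesterol exporter, fell by 1.68 ± 0.42 in double null against Bmi1 null colonies (adjusted p = 0.0299).

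Filaggrin processing and the cornified junction gave the last lists. Shares of all genes that rose and fell were 25.7% and 59.7% in double null and 25.2% and 58.3% in Bmi1 null against WT colonies. Between the mutants they were 2.81% and 4.62%. Of 16 filaggrin processing genes 7 rose and 5 fell in double null and 8 rose and 5 fell in Bmi1 null against WT colonies, and between the mutants 2 fell (3 at an unadjusted p under 0.05). Without double null replicate 4, 5 rose and 7 fell in double null against WT colonies and 3 fell between the mutants. The serine protease Klk14 rose by 3.70 ± 0.79 in double null and by 4.68 ± 0.79 in Bmi1 null against WT colonies, and Asprv1, the aspartic protease that cleaves profilaggrin, by 4.31 ± 0.92 in Bmi1 null colonies. Padi2 and Hal of the same list fell by 3.77 ± 0.50 and 2.80 ± 0.43 in double null against WT colonies. Padi2 was well above background on only 1 of 4 double null arrays. Klk7, which degrades corneodesmosin, had -0.36, -0.64, -0.95 and 5.15 on double null arrays and 4.26, 4.12, 4.64 and 4.84 on Bmi1 null arrays, against 0.95, 0.57, 0.93 and 0.39 on WT arrays. Double null replicate 4 exceeded every Bmi1 null array while the other 3 lay below WT. Klk7 fell by 3.66 ± 1.03 in double null against Bmi1 null colonies (adjusted p = 0.0487), while its probes differed in sign in double null against WT colonies. Of 10 corneodesmosome and secreted epithelial genes 7 rose in double null and 9 in Bmi1 null against WT colonies, 0 fell in either, at an unadjusted p under 0.05 too, and Cdsn alone was called between the mutants. At an unadjusted p under 0.05, 4 of these genes fell and 0 rose between the mutants. Without double null replicate 4, 1 fell in double null against WT colonies and 3 fell between the mutants. Krtdap, a secreted keratinocyte peptide separated from Sbsn by 1 protein-coding gene, rose by 2.29 ± 0.57 in double null and by 2.92 ± 0.57 in Bmi1 null against WT colonies. The junction proteins Jup, Pkp1 and Plec also rose: Jup by 2.65 in double null and 2.61 in Bmi1 null colonies, Pkp1 by 2.57 in double null colonies and Plec by 2.73 in Bmi1 null colonies.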

How the data were processed

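Amplified, Cy3-labelled RNA of 12 colonies was read on Agilent mouse arrays in 1 colour, per the labels' protocols. The authors deposited the scanner output of Feature Extraction (per the file headers), whose processed signal is a background-subtracted intensity on a linear scale, with flags for spots well above background and for outlier spots. The authors also deposited values on a log2 scale, with column medians of 7.21 to 7.24 and a correlation of 0.992 to 1.00 with the log2 spot median. The normalization behind these values is unknown here, and they were used as an alternative only.

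Here the processed signal was log2-transformed and each array's 75th percentile subtracted. Control spots and outlier spots were left out, and 0 spots were saturated. Probes well above background on at least 3 of the 4 arrays of a genotype were kept (39338 of 41174), and the brightest probe stood for a gene. Accessions were matched to RefSeq symbols (GRCm38.p6): 24844 probes had 1 symbol, 0 several and 16330 none. limma 3.58.1 in R 4.3.3 fitted all 12 arrays with a mean per genotype (9 residual degrees of freedom), adjusted p by Benjamini and Hochberg over 31064 genes, and called genes at an adjusted p under 0.05. The fit was tested on simulated data. Arrays carry no counting depth, so their number, 4 per genotype, limits the precision.

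The arrays lay on 5 slides, which hold genotypes unequally, and slide was tried as a fixed and as a random block. Other alternatives were median scaling, quantile normalization, a normexp background correction on the spot median signal (the mean signal was not used), other filters and probe rules, a fit on 2 genotypes, and leaving out each array. The text names the 10 barrier genes, Bmi1 and Cdkn2a, up to 3 called genes with the largest change from each list and comparison, and the 5 genes most like the barrier genes; some genes of the lists are not reported here. Lor, Klk7 and Kyat1 are shown per array as examples chosen after their values were seen. The barrier genes and the lists were chosen with earlier results of these data known.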

Additional observations from a re-analysis of the deposited data

Results flagged for a closer look

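The Cdsn level of WT replicate 3, -0.64, lay apart from the other 3 WT colonies, at -1.17, -1.23 and -1.22, with a gap of 0.893 of the group's whole range (above Dixon's 95% critical value). It was the only one of 23 groups of 4 arrays examined (8 genes in 3 genotypes, without the incomplete Aloxe3 group) to be so marked, and chance marks about 5% of such groups. Without WT replicate 3 Cdsn rose by 4.21 in Bmi1 null against WT colonies.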

How the results depend on the processing

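Each result was recomputed under 23 alternatives. Tgm1, Tgm3, Tgm5, Casp14, Cdsn and Sbsn kept direction and call in Bmi1 null against WT colonies under all of them, as did Tgm1 and Tgm3 in double null against WT colonies. The call of Alox12b in Bmi1 null against WT colonies was lost in 11 of 23 alternatives (range 0.51 to 2.66), and Aloxe3 became called in 8. Barrier genes called numbered 2 in double null against WT colonies with the slide as a fixed block, against 4. Between the mutants, against 2 in all, they numbered 4 in the authors' table, 0 with the slide as a fixed block, 1 with the replicate block and 1 with only the 2 genotypes fitted. All genes called between the mutants numbered 1376 with quantile normalization, 1114 with normexp, 270 with the slide as a fixed block, 1348 with the replicate block and 936 with 2 genotypes, against 2308. Leaving out 1 array each gave 1382 to 2702 such genes, and 1 to 5 barrier genes called between the mutants, 4 to 6 in double null against WT and 6 to 8 in Bmi1 null against WT colonies. The 5 between the mutants came without double null replicate 4. Values that changed sign were those of Aloxe3 in double null against WT colonies with median scaling (0.020), Cdsn there without double null replicate 4 (-0.55, with 0.82 the highest value when 1 array is left out), Tgm3 between the mutants without Bmi1 null replicate 2 (-0.18) and without double null replicate 4 (-0.19, highest 0.48), and Tgm1 between the mutants without double null replicate 2 (0.046, lowest -0.32). None of these was called with all arrays; fewer arrays or genotypes leave fewer degrees of freedom, and otherwise the cause was not tested.

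The replicate numbers of the titles were tried as a block because the mutants share them. Same-numbered arrays correlated at -0.14 to 0.22 in their deviations from the genotype means, and others at -0.23 to 0.22. These overlapping ranges cannot show whether same-numbered colonies shared an animal, litter or day, which the labels do not say. With the block 1 barrier gene, Cdsn, was called between the mutants. All 8 genes were well above background on every array used.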

Other observations

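Of 23 transcription factors with known roles at barrier genes, 14 rose and 5 fell in each mutant against WT colonies. The shares of all genes that rose and fell were 25.7% and 59.7% in double null and 25.2% and 58.3% in Bmi1 null colonies. Without double null replicate 4, 12 rose and 5 fell in double null against WT colonies, where 25.2% of all genes rose and 58.5% fell. Trp63, the master regulator of stratified epithelium, rose by 2.64 ± 0.20 in double null against WT colonies, and Hopx, a homeodomain-only cofactor, rose by 2.90 ± 0.49 in Bmi1 null against WT colonies. Gata3 fell by 3.29 ± 0.44 in double null and by 3.27 ± 0.44 in Bmi1 null against WT colonies, and Ppara, a lipid-sensing nuclear receptor, by 3.31 and 2.60. Ppard, another such receptor, fell by 0.72 ± 0.18 in double null against Bmi1 null colonies (limma, adjusted p = 0.033).

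Among the 10 caspases tested, with Casp14 among them, 5 rose and 2 fell in double null and 4 rose and 3 fell in Bmi1 null against WT colonies. Shares of all genes that rose and fell were 25.7% and 59.7% in double null and 25.2% and 58.3% in Bmi1 null colonies. Without double null replicate 4, 4 caspases rose and 2 fell in double null against WT colonies, where 25.2% of all genes rose and 58.5% fell. Casp8, the initiator of death receptor signalling, rose by 2.08 ± 0.23 in double null and by 2.10 ± 0.23 in Bmi1 null colonies, and the inflammatory Casp4 fell by 3.30 and 2.60. Of 12 dental epithelial stem cell markers 4 rose in double null against Bmi1 null colonies and 0 fell (5 and 0 at an unadjusted p under 0.05). In that comparison 2.81% of all genes rose and 4.62% fell. Of 11 ameloblast markers 8 fell in each mutant against WT colonies, where 59.7% of all genes fell in double null and 58.3% in Bmi1 null colonies, with mean levels of -4.27 to -4.02 on double null arrays and -4.11 to -3.74 on Bmi1 null arrays, against -1.67 to -1.36 on WT arrays. In Bmi1 null colonies 2 rose, and in double null colonies 0. Of the 11, 6 to 7 were well above background on double null and 7 on Bmi1 null arrays, against 10 to 11 on WT arrays. The means on mutant arrays therefore include values near background.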
